A study of Mus musculus with 8 samples.

Results

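The potassium channel genes, taken as all genes whose symbol starts with Kcn, were examined in the hippocampus of 8 male SCID mice aged 12 weeks. SCID mice lack mature B and T lymphocytes, in both groups alike. All mice went through contextual fear conditioning. FTY720 (fingolimod, a sphingosine analogue that acts on sphingosine-1-phosphate receptors once phosphorylated) was given by mouth in saline at 1 mg/kg on 3 days to 4 mice, and saline alone (vehicle) to the other 4. Hippocampi were taken 17 hours after the final dose, which was 1 hour after the test of memory consolidation, and RNA of each mouse was hybridised to 1 Affymetrix 3' array. Of 12393 genes with a probe set annotated to them alone, 62 are Kcn genes, all protein coding in RefSeq and matched by Entrez ID. They were read by 90 probe sets. Where a gene had several, as 20 of the 62 did, the one of highest mean was used. Mice are named by replicate number, FTY720 1, 4, 5 and 6 and vehicle 13 to 16.

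Potassium channels let potassium leave the cell and thereby set the resting potential, repolarise action potentials and limit firing. Voltage-gated (Kv) channels open on depolarisation, Slo and SK channels include those opened by calcium, inward rectifiers and tandem-pore-domain channels act near the resting potential, and auxiliary subunits change the gating or trafficking of pore subunits. In the hippocampus, Kv4 channels act in dendrites, Kv7 and SK channels carry afterhyperpolarisations, and the inward rectifier Kir4.1 takes up potassium into astrocytes.

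The table gives log2 values per probe set. Probe sets differ in how well they bind, so levels are given per gene and not ranked between genes. Mean levels of the Kcn genes ran from 2.88 (Kcne3) to 10.78 (Kcnd2), and 17 of 62 lay above 7.17, the median of all genes. Medians of the arrays ran from 6.68 to 6.72. The array of vehicle 15 correlated least with the rest (median of its 7 correlations over probe sets 0.994, others 0.996 to 0.998), and vehicle 16 the lowest 5' minus 3' difference of the Gapdh control probe sets (-1.46, others -1.18 to -0.80), a sign of RNA integrity. For many members that lean on these arrays, the difference is given with and without them. Lists of cell type and tissue markers, and some members, are given with all 8 arrays only. Of the markers of hippocampal principal neurons, 5 of 8 measured lay above the median level, with Wfs1, a marker of field CA1, at 9.87 and the dentate factor Prox1 at 3.29.

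No Kcn gene passed an adjusted p of 0.05 (limma with Benjamini-Hochberg adjustment over all genes), and neither did any of the 12393 genes (0%). At an unadjusted p under 0.05 there were 4 Kcn genes of 62, or 6.45%, against 6.64% of all genes. Kcnn2 was on the higher side in FTY720 mice (3.86% of all genes were), and Kcnj10, Kcnk13 and Kcnj8 were on the lower side (2.78% of all genes). Values of the groups did not overlap in Kcnn2, Kcnj10 and Kcnj8, 3 of 62 or 4.84%, against 4.49% of all genes. Higher without overlap was 1 member (2.72% of all genes) and lower without overlap were 2 (1.78% of all genes). These shares are near those of all genes and are no result about potassium channels as a group. The median difference, FTY720 minus vehicle, was 0.007 on the log2 scale for the 62 members and 0.007 for all genes, with 34 members above 0 and 28 below. The lower count was 6 without FTY720 4 (2.33% of all genes) and 1 without FTY720 6 (2.40%). The higher count was 3 without vehicle 13 (4.41% of all genes) and 2 without vehicle 16 (3.32%).

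**Figure D1:**
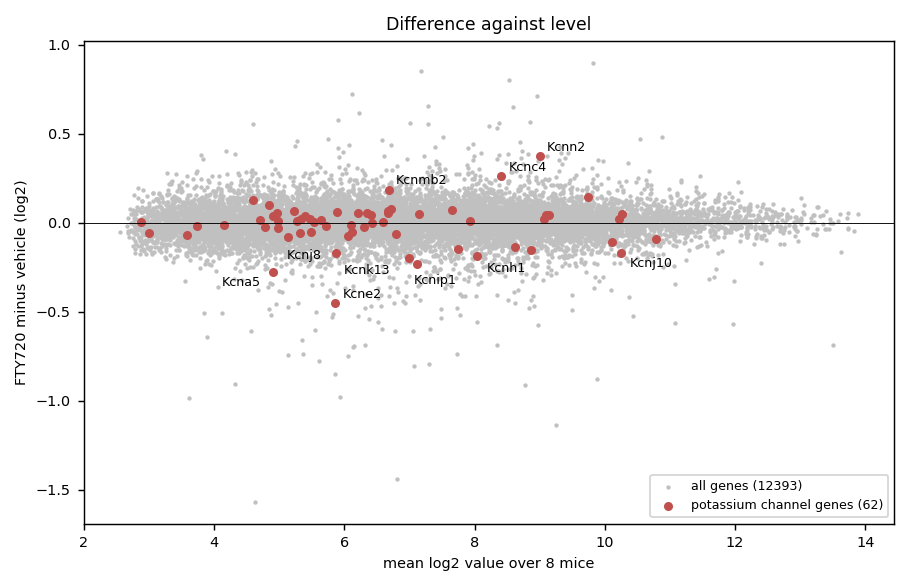
Each point is a gene, with its mean log2 value over the 8 mice on the x axis and the FTY720 minus vehicle difference (log2) on the y axis; the 62 potassium channel genes are red and all 12393 genes grey. Kcnn2, at 0.38, is the highest of the 62, and the lowest, Kcne2 at -0.45, also has the widest spread between mice.

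Differences were small and bounded for most members. The 95% interval of the difference stayed within a 1.25-fold change in either direction for 47 of 62 members (75.8%), against 83.3% of all genes. Kcnn2 and Kcne2 were the only members whose estimate itself passed 1.25-fold (3.23% of the 62, against 1.52% of all genes). No member reached 1.5-fold, which 37 of 12393 genes passed. The median SE was 0.08 for the members and 0.07 for all genes.

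**Figure D2:**
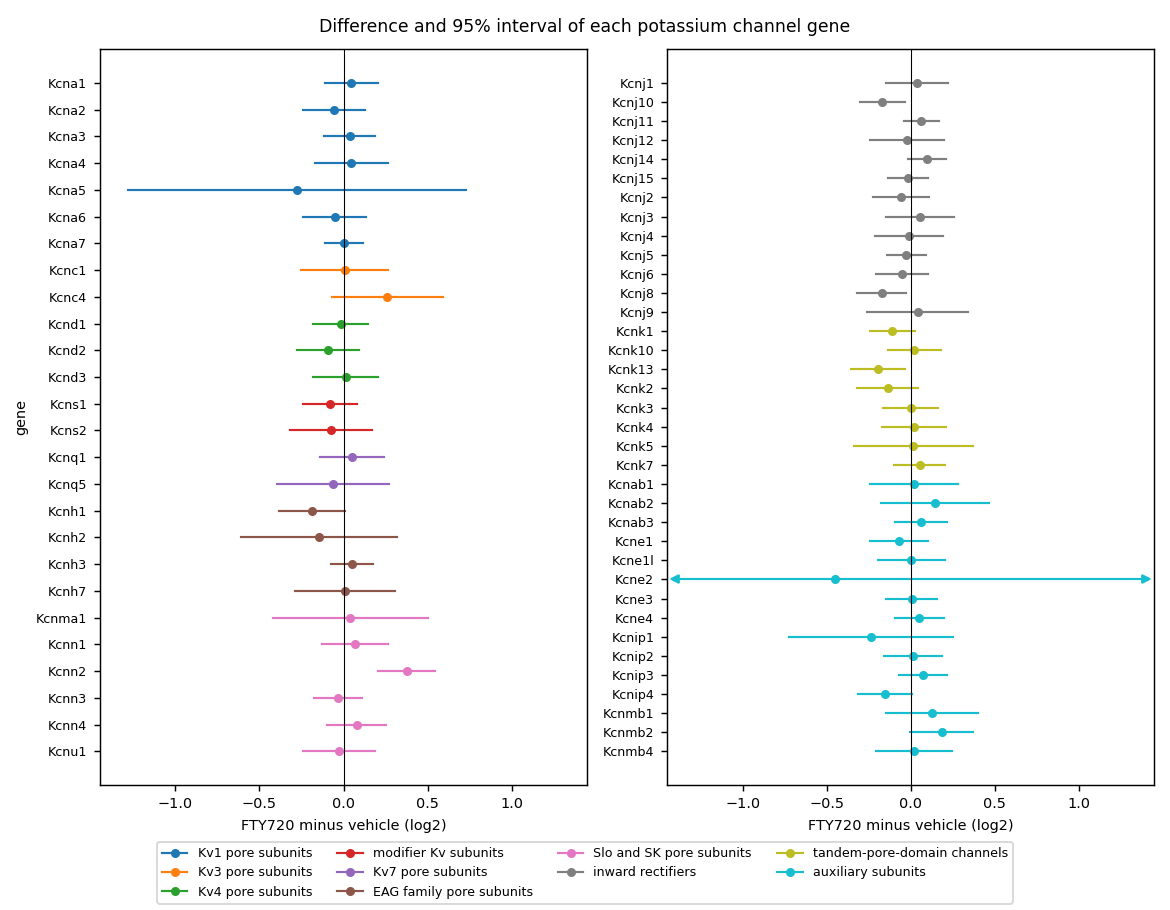
Points are the FTY720 minus vehicle differences (log2, x axis) of the 62 genes (y axis), bars their 95% intervals from the limma fit, and colours the channel class; arrowheads mark an interval that runs past the axis (Kcne2). Intervals are not adjusted for the number of genes. Those of Kcnn2, Kcnj10, Kcnk13 and Kcnj8, the 4 members at an unadjusted p under 0.05 (6.64% of all genes), do not reach 0.

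Kcnn2 had the smallest p of the 62. It encodes SK2, a small-conductance channel opened by calcium through calmodulin, which damps synaptic potentials and repeated firing in hippocampal neurons. Its log2 values were 9.13, 9.29, 9.13 and 9.19 in FTY720 1, 4, 5 and 6, and 8.86, 8.92, 8.60 and 8.87 in vehicle 13 to 16. All FTY720 mice lay above all vehicle mice, and vehicle 15 was the lowest of the 8. The means were 9.19 ± 0.07 (SD, n = 4) and 8.81 ± 0.14 (SD, n = 4), a difference of 0.38 (SE 0.07, 95% interval 0.21 to 0.54) or 1.30-fold, with a limma adjusted p = 0.634. The difference was 0.31 without vehicle 15 and 0.30 without vehicle 15 and 16. Over all 19 alternatives it ranged from 0.30 to 0.41.

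The other Slo and SK genes stood nearer to 0, and whether they differ from Kcnn2 was not tested. Kcnn1 and Kcnn3, which encode the related SK1 and SK3, stood at 0.07 (SE 0.09) and -0.03 (SE 0.06). Kcnn4, the intermediate-conductance channel of blood cells and endothelium, stood at 0.08 (SE 0.08). Kcnma1, the pore of the large-conductance BK channel opened by voltage and calcium, stood at 0.04 (SE 0.21). Its SE was wide because mice of both groups were far apart: 9.31, 8.67, 9.23 and 9.43 in FTY720 mice and 9.08, 9.17, 8.64 and 9.58 in vehicle mice. The lowest values were those of vehicle 15 and FTY720 4, so each group held 1 low mouse in this probe set. The other probe set of Kcnma1, at a mean level of 8.58, gave 0.10 with a smaller SE of 0.08. Kcnu1, the sperm channel Slo3, stood at -0.03 (SE 0.10).

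Kcnj10 encodes Kir4.1, the main potassium channel of astrocytes, which is also found in oligodendrocytes. Its log2 values were 10.11, 10.24, 10.19 and 10.10 in FTY720 mice and 10.31, 10.29, 10.47 and 10.25 in vehicle mice. The groups did not overlap, but the highest FTY720 mouse (4) and the lowest vehicle mouse (16) differed only in the second decimal. The difference was -0.17 (SE 0.06, 95% interval -0.30 to -0.03; limma adjusted p = 0.719). It was -0.12 (SE 0.05) without vehicle 15 and -0.14 (SE 0.06) without vehicle 15 and 16. Without FTY720 1, without FTY720 6 and without vehicle 15 and 16, its unadjusted p was no longer under 0.05.

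Markers of both glial types stood beside Kcnj10 with unlike values. All 9 measured oligodendrocyte genes were on the lower side at an unadjusted p under 0.05 (2.78% of all genes were), and none passed adjustment. Their median difference was -0.33, with list mean levels of 9.61 to 9.85 in FTY720 mice and 9.87 to 10.30 in vehicle mice. The mean of this list was highest in vehicle 16. Of 11 astrocyte genes, 5 were above 0, with a median of -0.01 and list means of 9.54 to 9.64 and 9.50 to 9.63. Among them the water channel gene Aqp4, whose protein lies with Kir4.1 in astrocyte endfeet, stood at -0.23 (SE 0.07) and the growth factor receptor gene Fgfr3 at 0.14 (SE 0.06). Their part in the Kcnj10 difference was not tested. In tissue of this kind, fewer cells of a type and less RNA per cell cannot be told apart.

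Kcnk13 encodes THIK-1, a tandem-pore-domain channel known as the resting potassium conductance of microglia. Its log2 values were 6.94, 6.93, 6.91 and 6.81 in FTY720 mice and 6.92, 7.04, 7.18 and 7.22 in vehicle mice. Vehicle 13 lay within the FTY720 range, and vehicle 15 and 16 were the highest of the 8. The difference was -0.20 (SE 0.07, limma adjusted p = 0.719), and -0.09 (SE 0.06) without vehicle 15 and 16. With the Gapdh control difference in the fit it was -0.11, and with array weights -0.13. In these fits, and without FTY720 6, vehicle 15 or vehicle 16 alone, its unadjusted p was no longer under 0.05. Microglial markers had a median difference of -0.04 over 8 genes, none at an unadjusted p under 0.05, with list means of 7.88 to 7.98 in FTY720 and 7.78 to 8.07 in vehicle mice. Their part in the Kcnk13 difference was not tested.

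Kcnj8 encodes Kir6.1, the pore of the ATP-sensitive channel of pericytes and vascular smooth muscle. Its log2 values were 5.78, 5.75, 5.81 and 5.80 in FTY720 mice and 5.88, 6.00, 6.11 and 5.83 in vehicle mice. The FTY720 mice lay within a narrow band below all vehicle mice, whose spread was wider. The difference was -0.17 (SE 0.06, limma adjusted p = 0.720), and -0.12 (SE 0.05) without vehicle 15. Without vehicle 14 and without FTY720 4 it was -0.16 in each case. In these 3 fits its unadjusted p was no longer under 0.05. Of 9 mural cell markers 6 were above 0, with a median of 0.04 and list means of 7.08 to 7.15 and 6.85 to 7.25. Abcc9, the regulatory subunit that pairs with Kir6.1, stood at 0.06 (SE 0.09) from a dim probe set, at a mean level of 3.50. The part of vascular cells in the Kcnj8 difference was not tested.

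**Figure D3:**
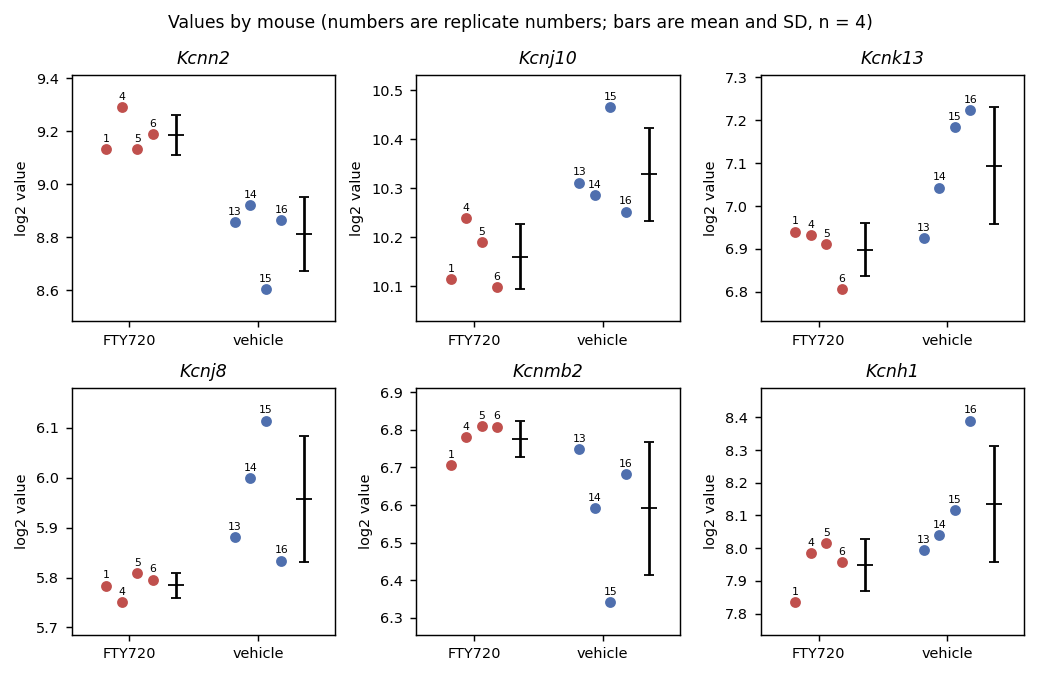
Log2 values (y axis) of 6 potassium channel genes by mouse, with replicate numbers beside the points; bars give the mean and SD of 4 mice. FTY720 and vehicle values do not overlap for Kcnn2, Kcnj10 and Kcnj8, while vehicle 15 or 16 lies farthest from the FTY720 mice in all 6.

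Next in order of p came Kcnmb2 and Kcnh1, whose groups overlapped. Kcnmb2, an auxiliary subunit that makes BK channels inactivate, was 6.71, 6.78, 6.81 and 6.81 in FTY720 mice and 6.75, 6.59, 6.34 and 6.68 in vehicle mice. Vehicle 15 was the lowest of the 8. The difference was 0.19 (SE 0.08, limma adjusted p = 0.750), and 0.10 (SE 0.06) without vehicle 15. Without vehicle 13 it was 0.24 and without vehicle 16 it was 0.22, both at an unadjusted p under 0.05, as was the case with the mean of its probe sets and among genes above the 25th percentile of level. Its other probe set gave 0.18 (SE 0.07). Kcnh1, the EAG channel gene, was 7.84, 7.99, 8.01 and 7.96 in FTY720 mice against 7.99, 8.04, 8.12 and 8.39 in vehicle mice. Vehicle 16 stood apart as the highest. Kcnh1 differed by -0.19 (SE 0.09), or -0.07 (SE 0.06) without vehicle 15 and 16. It was -0.23 without vehicle 13 and -0.22 without vehicle 14, and its unadjusted p was under 0.05 in both fits and with an intensity trend.

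Kv1 channels shape the threshold and the axonal action potential. Of the 7 measured genes (Kcna1 to Kcna7), 4 were above 0 and none had an unadjusted p under 0.05, with a median difference of 0.004. Kcna1, Kcna2 and Kcna4 stood at 0.05 (SE 0.07), -0.06 (SE 0.08) and 0.05 (SE 0.10). Kcna1 ran from 10.17 to 10.43 under FTY720 and from 10.13 to 10.36 under vehicle, so the ranges nearly coincided.

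Kv3 channels allow fast firing, as in parvalbumin interneurons. Kcnc1 stood at 0.01 (SE 0.11) and Kcnc4 at 0.26 (SE 0.15). For Kcnc4 the values were 8.67, 8.48, 8.53 and 8.48 in FTY720 mice and 8.58, 8.35, 7.78 and 8.41 in vehicle mice. Vehicle 15 stood alone below the rest, and without it the difference was 0.09 (SE 0.07). The other probe set of Kcnc4, at a mean level of 6.85 against 8.41, gave 0.08 (SE 0.07). That set was the one left in the fit without cross-hybridising probe sets. Interneuron markers had a median difference of 0.16 over 9 genes, 6 above 0 and 3 below. Pvalb stood at 0.16 (SE 0.15) and Npy, the lowest, at -0.23 (SE 0.12). Of the 9, 3 (Sst, Lhx6 and Reln) were on the higher side at an unadjusted p under 0.05 (3.86% of all genes were). The mean of the 9 was 9.57 to 9.65 in FTY720 mice and 9.40 to 9.63 in vehicle mice, lowest in vehicle 15. The part of interneurons in these values was not tested.

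Kv4 channels carry the fast transient current of dendrites. Kcnd2, the Kv4.2 gene, stood at -0.09 (SE 0.08), with values of 10.58 to 10.93 in FTY720 and 10.74 to 10.96 in vehicle mice. Its other 2 probe sets gave -0.13 and -0.11, so all 3 were on the same side with no p under 0.05. Kcnd1 stood at -0.02 and Kcnd3 at 0.01. The cytosolic KChIP subunits of Kv4 were also split. Kcnip4 stood at -0.15 (SE 0.07), with the other probe set at -0.16, and at -0.22 without FTY720 4, at an unadjusted p under 0.05 there, without vehicle 14, with quantile normalization and with centring on brighter genes. The rest were Kcnip3 at 0.07 (SE 0.06), Kcnip2 at 0.01 (SE 0.08) and Kcnip1 at -0.23 (SE 0.22).

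With all 8 mice in the fit, silent Kv subunits, Kv7 and the remaining EAG family genes showed no difference beyond the spread between mice. Kcns1 and Kcns2, which do not form channels alone but modify other Kv subunits, stood at -0.08 (SE 0.07) and -0.08 (SE 0.11). Without FTY720 4, the highest mouse at 6.37, Kcns2 stood at -0.19, with the remaining FTY720 mice below all vehicle mice. In 1 alternative the unadjusted p of Kcns2 was under 0.05. Kcnq5, a Kv7 gene that contributes to the M current, stood at -0.06 (SE 0.15), and Kcnq1, known mainly from heart and epithelia, at 0.05 (SE 0.08). Kcnh3, a forebrain Elk channel gene, stood at 0.05 (SE 0.06) and Kcnh7, an Erg channel gene, at 0.01 (SE 0.13).

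Among the 13 inward rectifiers, 5 were above 0 and 8 below, with a median of -0.01. Kcnj3, Kcnj6 and Kcnj9 encode GIRK subunits, which open on G protein beta-gamma subunits below receptors such as GABA-B. They stood at 0.06 (SE 0.09), -0.05 (SE 0.07) and 0.04 (SE 0.13). Kcnj6 was 6.09, 6.08, 6.04 and 6.12 in FTY720 mice and 6.19, 6.27, 5.94 and 6.14 in vehicle mice. Vehicle 15 was the lowest and the other vehicle mice the highest, and without vehicle 15 the difference was -0.12 (SE 0.05), at an unadjusted p under 0.05. Of the other 4 probe sets of Kcnj6, 3 were above 0 and 1 below, with differences between -0.08 and 0.10. The remaining members (Kcnj1, Kcnj2, Kcnj4, Kcnj5, Kcnj11, Kcnj12, Kcnj14 and Kcnj15) lay between -0.06 and 0.10.

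Tandem-pore-domain channels give the background conductance. Of 8 genes, 4 were above 0 and 4 below, with a median of 0.008. Kcnk1 (TWIK-1) stood at -0.11 (SE 0.06) and Kcnk2 (TREK-1, opened by stretch and lipids) at -0.14 (SE 0.08). Kcnk1 was 10.07, 10.20, 10.02 and 9.95 in FTY720 mice and 10.21, 10.14, 10.11 and 10.21 in vehicle mice. FTY720 4 was the only one of its group within the vehicle range. Without it the differences of Kcnk1 and Kcnk2 were -0.16 and -0.20, both at an unadjusted p under 0.05. Kcnk3, Kcnk4, Kcnk5, Kcnk7 and Kcnk10 lay between -0.001 and 0.05.

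Of the 15 auxiliary subunits, 11 were above 0, with a median of 0.02 and none at an unadjusted p under 0.05. Kcnab1 and Kcnab2, cytosolic beta subunits of Kv1, stood at 0.02 (SE 0.12) and 0.14 (SE 0.14). Without vehicle 15 Kcnab1 stood at 0.14 and Kcnab2 at 0.006. Kcnmb4, the neuronal beta subunit of BK, stood at 0.02 (SE 0.10), and at -0.09 (SE 0.06) without vehicle 15. Kcnmb1, its smooth muscle counterpart, stood at 0.13 (SE 0.12). Apart from Kcne2, the single-pass Kcne genes lay between -0.07 and 0.05.

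Kcne2 had the widest spread of the 62 members and the third widest of all 12393 genes. It encodes a small membrane subunit that is abundant in choroid plexus epithelium. Its log2 values were 7.29, 4.27, 6.78 and 4.18 in FTY720 mice and 5.26, 6.90, 7.87 and 4.30 in vehicle mice. Each group held high and low mice, and the difference of -0.45 (SE 0.91) was 0.14 without vehicle 15. The mean of 10 choroid plexus markers, which leave out Kcne2, ordered the mice exactly as Kcne2 did, 8 of 8 ranks being equal. Those means ran from 5.79 to 7.67 in FTY720 mice and from 6.17 to 8.08 in vehicle mice. Transthyretin, Ttr, the leading choroid plexus transcript, was 13.16 ± 1.33 (SD) and 13.85 ± 0.71 (n = 4 each).

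Kcna5, Kcnip1 and Kcnh2, chosen for this description after their values were seen, were each highest in vehicle 15. Kcna5, a Kv1 gene of vessels and glia, was 4.83, 4.73, 4.75 and 4.73 in FTY720 mice and 4.06, 4.79, 6.66 and 4.64 in vehicle mice. Kcnip1, a KChIP found in interneurons, ran from 6.99 to 7.04 in FTY720 mice and was 6.96, 7.08, 8.04 and 6.87 in vehicle mice. The other probe sets of Kcnip1, all dimmer, gave differences of -0.05, -0.07 and 0.02, against -0.23 in the one used. Kcnh2, the ERG channel gene, was 7.72, 7.68, 7.71 and 7.58 and then 7.55, 7.73, 8.56 and 7.45. In each the other vehicle mice lay close to the FTY720 mice, except for vehicle 13 in Kcna5. Without vehicle 15 the differences were 0.27 (SE 0.15), 0.03 (SE 0.06) and 0.10 (SE 0.07), against -0.28, -0.23 and -0.15 with it.

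Vehicle 15 was also the mouse with the highest thalamus and striatum marker means. Relative to the mean of 8 mice, they were 1.14 for 10 thalamus genes and 1.44 for 9 striatum genes, and no other mouse was above 0.22 and 0.30. The part of thalamus and striatum in the values of Kcna5, Kcnip1 and Kcnh2 was not tested. The mean of 8 neocortex genes was instead highest in vehicle 16, at 0.44, with vehicle 14 next at 0.003. Vehicle 15 was the highest mouse for 15 and the lowest for 19 of the 62 members, 54.8% together, against 40.7% of all genes. With Kcne2, these were the 4 members that ranged over more than 1 log2 unit, 6.45% of the 62 against 1.91% of all genes.

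**Figure D4:**
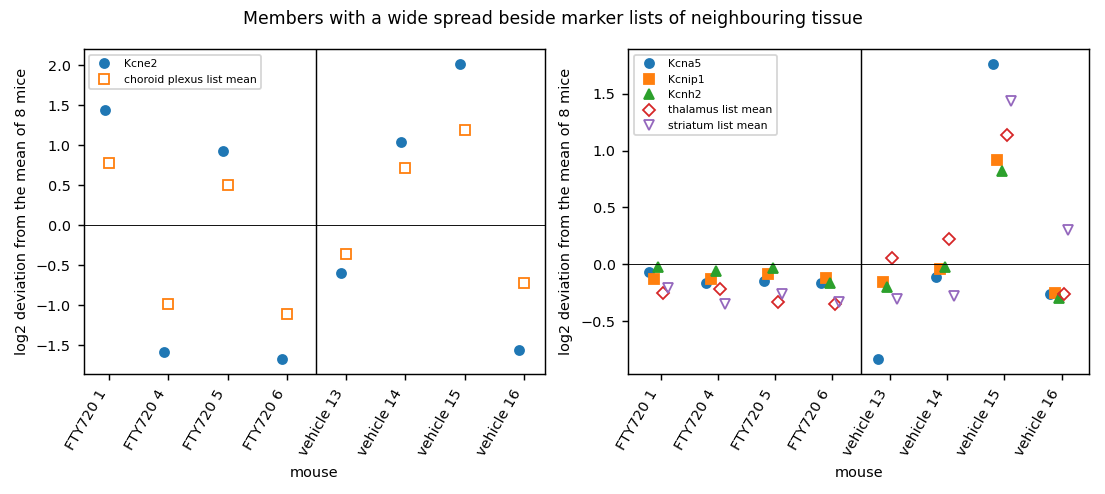
Log2 deviation from the mean of the 8 mice (y axis) for each mouse (x axis); filled symbols are single genes and open symbols the mean of a marker list. Kcne2 goes up and down with the choroid plexus list in both groups, while Kcna5, Kcnip1 and Kcnh2 are highest in vehicle 15, as are the thalamus and striatum lists.

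**Figure D5:**
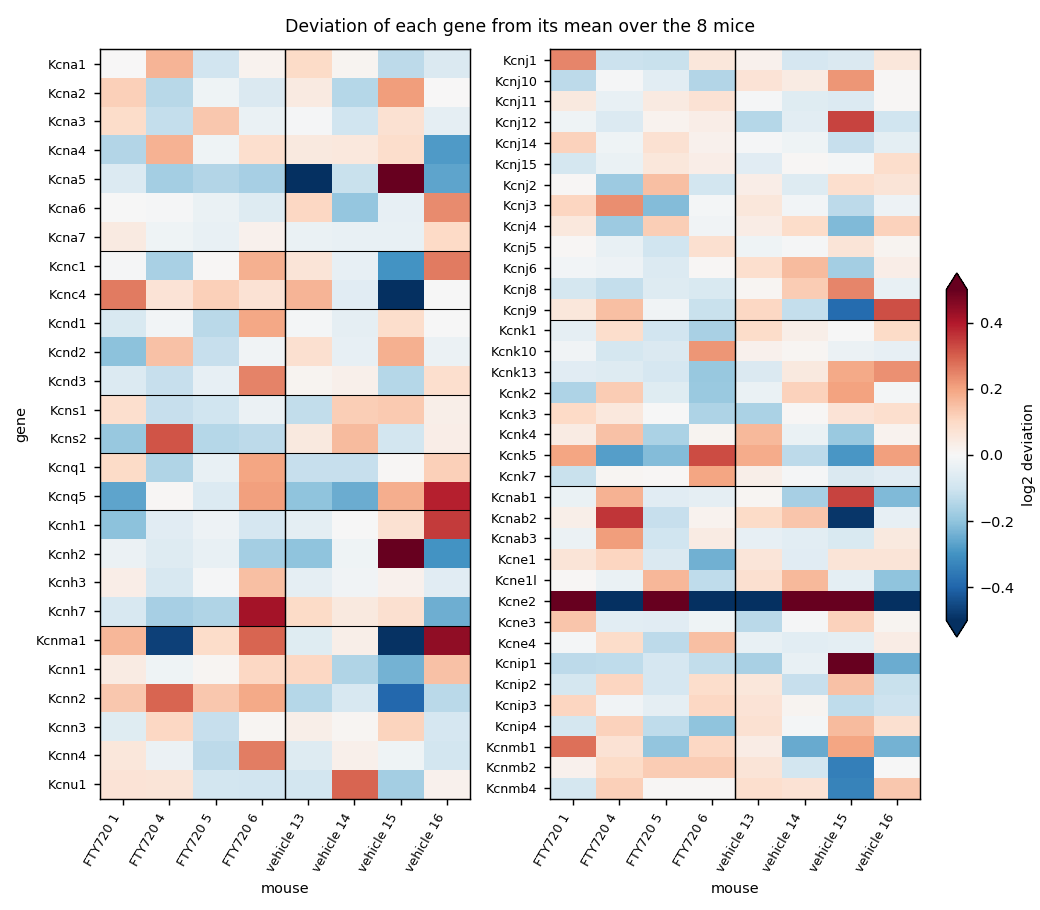
Each row is a potassium channel gene and each column a mouse, coloured by the log2 deviation from the gene's mean over the 8 mice, with the colour scale ending at 0.5 in either direction; lines separate channel classes and, vertically, FTY720 from vehicle mice. Deep colours gather in vehicle 15 and in the row of Kcne2, and most other rows are pale.

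Partner genes without a Kcn symbol were read the same way. Of 29 measured partners, which cluster, anchor or regulate these channels, 16 were above 0 and 13 below, with a median of 0.03 and none at an unadjusted p under 0.05 in the limma fit (6.64% of all genes). The smallest p belonged to Rgs7 (-0.11, SE 0.07), which speeds the closing of GIRK channels, Cntnap2 (-0.11, SE 0.07), which clusters Kv1 beside nodes, and Lgi1 (0.14, SE 0.09), a secreted protein linked to Kv1 complexes. Without vehicle 15, whose list mean was the lowest, 4 of 29 partners had an unadjusted p under 0.05 (7.18% of all genes in that fit), and without vehicle 15 and 16 there were 2 (5.70% of all genes). Dpp6, the Kv4 partner, stood at 0.05 (SE 0.06) and Ank3, the anchor of Kv7 at the axon initial segment, at -0.01 (SE 0.04).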

How the data were processed

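The authors deposited 1 log2 value for each probe set and array, a scale read from the values. RMA, MAS5 and Affymetrix Expression Console appear, with no version or role, per the submitters' processing notes. Which of them made the table is therefore unknown here. Values were used as deposited. Of 22690 probe sets, 20380 had 1 gene symbol, 691 several and 1619 none (with 64 control probe sets). No gene was removed for low signal. FTY720 and vehicle were compared in R 4.3.3 by the lmFit and eBayes functions of limma 3.58.1 (8 arrays, no covariate) with Benjamini-Hochberg adjustment over 12393 genes, after a check on simulated data. SE and intervals are those of that fit. The number of mice limits precision, and no scan date was available as a batch. Members, gene lists, alternatives and tests were chosen with earlier results of these data known. Named were all members at an unadjusted p under 0.05 or with groups that do not overlap, the 2 of smallest p per class, and a fixed list of 28 channel genes, of which 23 were measured. Others, among them Kcna5, Kcnh2, Kcnh7, Kcnmb1, Kcnmb4 and Kcnab3, were named after their values were seen.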

Additional observations from a re-analysis of the deposited data

Results flagged for a closer look

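In 8 of 124 groups of 4 mice (62 genes in each treatment), 1 mouse lay far from the other 3 by Dixon's criterion for the gap to the nearest. Chance alone flags about 5% of groups, so these flags are about as many as chance gives. In vehicle 16, Kcna4 was low at 6.12 (others 6.46 to 6.50), Kcna7 high at 6.70 (others 6.56 to 6.57) and Kcnh7 low at 4.74 (others 5.03 to 5.08). In FTY720 4, Kcnab1 was high at 10.39 (others 10.17 to 10.19) and Kcns2 high at 6.37 (others 5.86 to 5.92). Kcnh7 was high in FTY720 6 at 5.40 (others 4.82 to 4.91). Kcnmb4 was low in vehicle 15 at 8.72 (others 9.13 to 9.20), and Kcne1 low in vehicle 14 at 3.53 (others 3.64 to 3.65).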

How the results depend on the processing

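In 11 alternatives and with each mouse left out, the count of genes past an adjusted p of 0.05 stayed at 0, and the median Kcn difference lay between -0.009 and 0.02. The count of Kcn genes on the higher side at an unadjusted p under 0.05 was 2 among genes above the 25th percentile of level (4.37% of all genes in that fit), 2 with the mean of all probe sets (4.24%) and 2 with the Gapdh covariate (2.49%), and 1 to 3 with a mouse left out. The count on the lower side was 1 among genes above the median level, where 17 members were tested (3.53% of all genes in that fit), 5 with the Gapdh covariate (1.59%), and 1 to 6 with a mouse left out. For partner genes the count in either direction was 1 with array weights (6.96% of all genes), 2 without vehicle 15 and 16 (5.70%), 1 with the Gapdh covariate (4.08%), and 0 to 4 with a mouse left out. With the Gapdh covariate Kcna4, at 0.05 without it, was -0.20, Kcnd2 -0.25, Kcnn3 -0.16 and Kcnma1 0.47, all at an unadjusted p under 0.05, while Kcnab1 was -0.19 and Kcnip2 -0.15. The cause was not tested. That covariate was uneven between the groups, -1.08 to -0.80 in FTY720 and -1.46 to -1.07 in vehicle mice. No paired analysis was possible because the groups share no replicate number.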

Other observations

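The beta subunit genes of Kv1 gave larger differences in their second, dimmer probe sets, which the comparison by gene did not use and which were picked here after their values were seen. The second probe set of Kcnab2, at a mean level of 6.12 against 9.74, stood at 0.23 (SE 0.06, limma adjusted p = 0.609 over all probe sets of 1 gene), with all FTY720 mice above all vehicle mice. That of Kcnab1 stood at 0.20 (SE 0.09) and that of Kcnab3 at 0.16 (SE 0.06). Larger differences in an unused set were not particular to these genes. An unused probe set of Kcnk3 stood at 0.15 (SE 0.05), with groups not overlapping, against -0.001 in the set used. The second sets of Kcnip2 and Kcnip3 stood at 0.17 and 0.14, against 0.01 and 0.07. Over the 20 genes with several probe sets, 16 of 28 unused probe sets had the sign of the one used, and all signs matched in 11 genes. Of the 28, 23 had a mean below the median level of all genes, and 4 had an unadjusted limma p under 0.05. Among all genes, read by the set of highest mean, 6.64% had such a p and 4.49% had groups that did not overlap. The shares among unused sets of all genes were not computed, so no like comparison can be made.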
